A study of Mus musculus with 4 samples.

Results

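C-type lectins are receptors of myeloid cells that read sugars on microbes and on self proteins. The 10 gene symbols considered here were Cd209a, Cd209b, Cd209c, Cd209d and Cd209e of the CD209 (DC-SIGN) family, the galactose-binding lectins Mgl2 and Clec10a, the inhibitory receptors Clec4a2 and Clec12a, and the beta-glucan receptor Clec7a. The members were every probe set annotated with exactly 1 of these symbols. This gave 12 of 45037 probe sets, for 9 of 17097 genes. Clec12a was named by no probe set in the annotation used and has no value here. RNA came from splenic DC with the genetic background given as C56BL/6 in the labels, either WT or MARCO-/-, which lack the scavenger receptor MARCO. Per the methods the mice were 8 to 12 weeks old, each pool of DC held cells of 5 to 6 animals selected for CD11c, and 3 such pools were made per genotype, without saying which of them gave the arrays. The cells were kept overnight with PBS, the buffer control, or with LPS at 100 ng/ml, and each of the 4 conditions was measured on 1 array. With 1 array per condition there is no replicate and no test, and every difference below has the size measured between 2 arrays, called at the 2-fold threshold of the methods. The targeted gene, Marco, measured 8.05 in WT PBS, 3.95 in MARCO-/- PBS, 3.15 in WT LPS and 4.25 in MARCO-/- LPS. It stood above the array median (4.72 to 4.98) in WT PBS alone, so it does not check the genotype labels of the LPS arrays, and whether its probe set lies in the deletion is not known here.

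In mouse, the CD209 genes lie side by side on chromosome 8 and encode membrane receptors with a calcium-dependent lectin domain that binds mannose-rich and fucose-containing sugars, through which bacteria, fungi and viruses are captured and internalized. CD209 proteins mark certain DC and macrophages: Cd209a is a marker of conventional and monocyte-derived DC, and Cd209b is known for its place on the marginal zone macrophages of the spleen, cells that also carry MARCO. Mgl2 and Clec10a, neighbours on chromosome 11, encode the receptors CD301b and CD301a, which bind galactose and N-acetylgalactosamine. Clec4a2 encodes DCIR, whose cytoplasmic tail recruits phosphatases, and Clec7a encodes Dectin-1, which signals through the kinase Syk and the adaptor Card9.

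The promoter windows of Cd209a, Cd209d and Cd209e are shown because these are the CD209 genes whose values with LPS and with PBS differed past 2-fold in WT. Each window runs from 250 bases before to 50 bases after the gene start in RefSeq (GRCm38.p6), is written 5′ to 3′ on the minus strand of chromosome 8, and has in capitals the longest run of letters that all 3 windows share. The windows lie at chr8:3748935-3749234 for Cd209a, chr8:3878450-3878749 for Cd209d and chr8:3854237-3854536 for Cd209e.
Cd209a: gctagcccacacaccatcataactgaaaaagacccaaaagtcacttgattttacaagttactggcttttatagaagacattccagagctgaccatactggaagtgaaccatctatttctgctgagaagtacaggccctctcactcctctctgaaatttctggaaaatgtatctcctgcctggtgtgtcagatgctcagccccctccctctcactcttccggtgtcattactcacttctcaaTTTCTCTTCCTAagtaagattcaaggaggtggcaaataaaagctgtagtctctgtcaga
Cd209d: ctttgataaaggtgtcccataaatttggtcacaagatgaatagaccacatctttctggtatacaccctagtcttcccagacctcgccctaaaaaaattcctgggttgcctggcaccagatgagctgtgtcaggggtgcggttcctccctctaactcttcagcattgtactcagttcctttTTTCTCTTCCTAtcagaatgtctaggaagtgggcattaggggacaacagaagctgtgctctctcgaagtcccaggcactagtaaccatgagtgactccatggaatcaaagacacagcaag
Cd209e: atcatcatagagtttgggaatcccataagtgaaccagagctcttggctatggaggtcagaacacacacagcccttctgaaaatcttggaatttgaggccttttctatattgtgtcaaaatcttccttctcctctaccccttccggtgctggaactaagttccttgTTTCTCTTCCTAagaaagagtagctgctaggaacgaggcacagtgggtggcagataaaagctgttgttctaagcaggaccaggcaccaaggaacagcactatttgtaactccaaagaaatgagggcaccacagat

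The run shared by all 3 windows has 12 bases. Counting the gene start as 0, it begins at -9 in Cd209a, at -70 in Cd209d and at -85 in Cd209e. It was found, on either strand, in 9 of 32851 promoter windows (0.0274%), and not in those of Cd209b, Cd209c, Mgl2, Clec4a2, Clec7a or Clec12a. Because the run was picked as one that these 3 windows share, its presence in them was fixed in advance. A link between the run and the values with LPS was not tested. Cd209b, which lacks this run, shares a longer one of 17 bases with Cd209a. Aligned pair by pair, the windows of Cd209a, Cd209b, Cd209d and Cd209e were identical at 63.7% to 72.3% of 213 to 274 aligned bases. On both strands the core letters of PU.1 (GAGGAA, in 28.3% of all windows) occurred once in the window of Cd209d, once in Clec7a, once in Mgl2 and at 2 positions in Clec12a. The letters of an AP-1 site (TGANTCA, in 7.81% of all windows) were in the windows of Clec4a2 and Clec12a. These letters read the same on both strands up to the free base, so a place counts once. None of the member windows held the start of a kappa-B site (GGGANTTTC, in 1.11% of all windows) or the letters of an IRF site (GAAANNGAA, in 8.56% of all windows). Clec10a had no window and was not searched. A match is a description of the letters, and no binding was measured here.

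Of the 9 members, 3 were past 2-fold between genotypes with PBS, each with the lower value in MARCO-/- DC, namely Cd209e, Cd209d and Mgl2, and none was higher. Across all genes 0.287% were at least 2-fold lower and 0.760% at least 2-fold higher. Among the 6472 genes that reached an intensity of 32 on any array, 0.433% were lower, and Cd209e and Cd209d were 2 of the 5 members that reached it. The median log2 ratio of the 9 members was -0.34, against 0.01 over all genes. These genes had been picked with such results known, so the counts describe the members and are not independent evidence of a direction.

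Cd209e, which encodes the receptor SIGNR4, had an intensity of 60.4 in WT PBS, 2.91 in MARCO-/- PBS, 2.51 in WT LPS and 2.34 in MARCO-/- LPS. WT PBS was thus the single array on which it stood above the array median, which lay between 4.72 and 4.98 and is taken here as background. The ratio with PBS was 20.8-fold as measured, and at least 12.3-fold lower in MARCO-/- when values below the array median are raised to it. This was the lowest of the genotype ratios with PBS among all 17097 genes (log2 ratio -4.38).

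Cd209d, which encodes SIGNR3, had 85.1 in WT PBS, 18.6 in MARCO-/- PBS, 4.91 in WT LPS and 3.35 in MARCO-/- LPS. With PBS it was 4.58-fold lower in MARCO-/- (log2 ratio -2.20), the 4th lowest ratio of all genes. Unlike Cd209e, it stayed well above background on the MARCO-/- PBS array. Mgl2 had 19.5 in WT PBS, 5.93 in MARCO-/- PBS, 3.68 in WT LPS and 2.61 in MARCO-/- LPS. It was 3.29-fold lower in MARCO-/- with PBS (log2 ratio -1.72), the 9th lowest ratio, although its value on the MARCO-/- PBS array was close to the array median of 4.91. With 16 added to all intensities before the logarithm, the log2 ratio of Mgl2 was -0.69, under the 2-fold threshold, while Cd209e at -2.01 and Cd209d at -1.55 passed it.

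**Figure D1:**
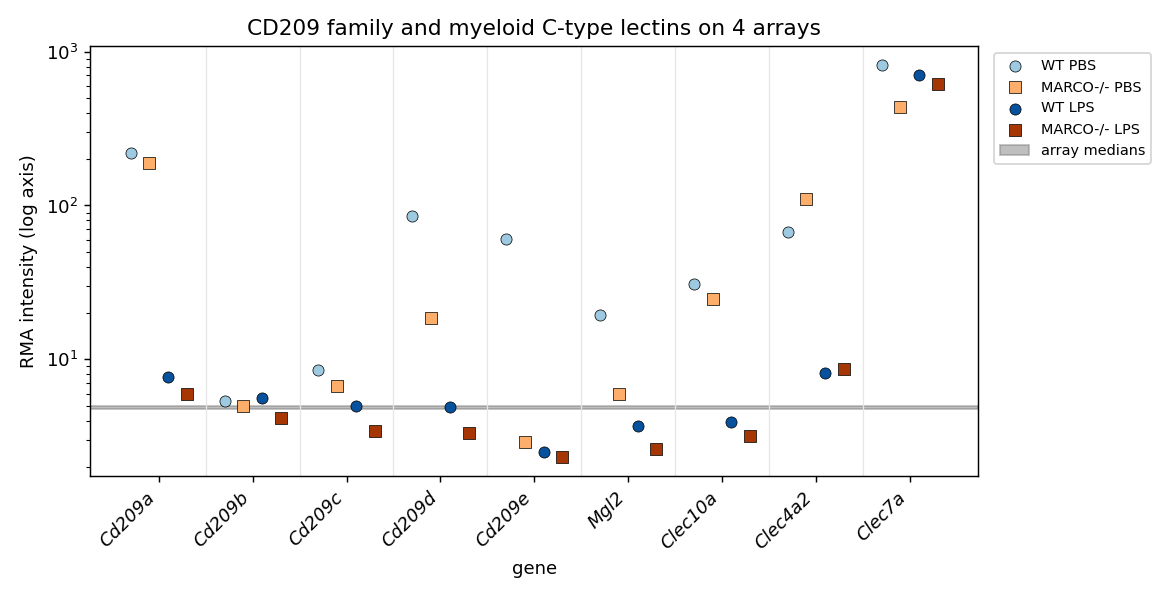
RMA intensity (log axis) of the 9 members on the 4 arrays; each point is 1 array, circles are WT, squares MARCO-/-, pale symbols PBS and dark symbols LPS, and the grey band spans the array medians. Cd209e stands at 60.4 on the WT PBS array and below the band on the other 3 arrays, while Clec7a lies between 436 and 813 on all 4.

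The other CD209 genes did not pass 2-fold between genotypes with PBS. Cd209a had 219 in WT PBS and 189 in MARCO-/- PBS, a difference of 1.16-fold. Cd209c had 8.51 and 6.73, close to background. The brighter probe set of Cd209b had 5.33 and 4.95, and the second had 2.69 and 2.88, below the array median on all 4 arrays. The family was therefore unequal: the neighbours Cd209e and Cd209d were lower in MARCO-/-, and Cd209a, which lies next to Cd209e on the chromosome, was within 1.5-fold. On the far side of Cd209a lie Clec4g, at 4.59 and 4.57, and Fcer2a, the gene of the low-affinity receptor for IgE on B cells. Fcer2a had 233 in WT PBS and 73.5 in MARCO-/- PBS (3.17-fold lower), in both of its probe sets past 2-fold.

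Of the members outside the CD209 family, Clec7a had 813 in WT PBS and 436 in MARCO-/- PBS, 1.86-fold lower and under the threshold. Its log2 ratio of -0.90 was nevertheless the 70th lowest of all genes. Clec10a, the close relative and neighbour of Mgl2, had 30.7 and 24.7 (1.24-fold), so the 2 galactose-binding lectins did not differ between genotypes by the same factor. Clec4a2 stood apart from the rest in direction, with 67.1 in WT PBS and 110.0 in MARCO-/- PBS (1.64-fold higher). Its other probe sets had 50.1 and 71.1, and 8.22 and 10.4, all higher in MARCO-/- and all under 2-fold. Cd209b and Clec4a2 were the members with more than 1 probe set, so the values of the other 7 genes rest on a single probe set each.

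**Figure D2:**
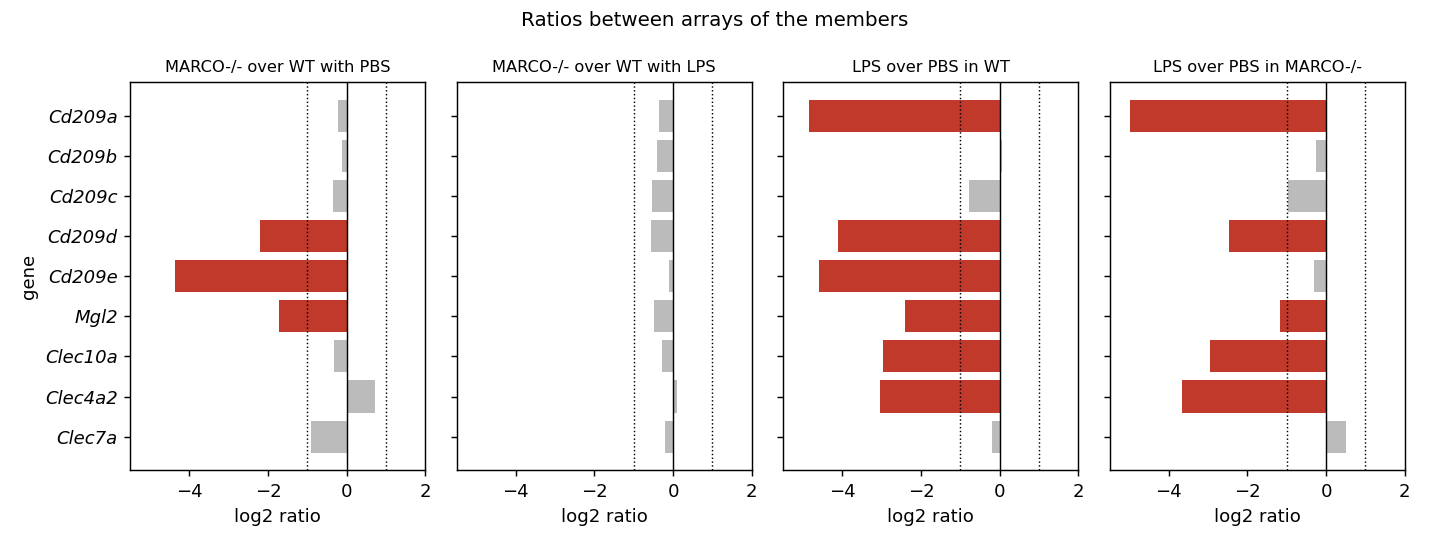
log2 ratio of each of the 9 members in the 4 comparisons; each bar is the ratio between 2 arrays, dotted lines mark 2-fold, and red bars are past it. With PBS the ratios between genotypes run from -4.38 for Cd209e to 0.71 for Clec4a2, and with LPS all 9 lie inside the dotted lines.

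Markers of other cells were compared on the same arrays, since in bulk RNA fewer cells of a type and less RNA per cell cannot be told apart. Conventional DC 2 is the DC subset in which Cd209a and Mgl2 are often described. Of its 17 genes, 1 (Esam) was at least 2-fold higher and none lower in MARCO-/- with PBS. Their summed intensity was 3817 in WT and 4270 in MARCO-/-, of which S100a4 made up 1382 and 1452. The median log2 ratio of this list was 0.30, while Irf4 (143 in WT and 95.0 in MARCO-/-) and Klf4 (629 and 440) were lower, under 2-fold. The 14 genes of conventional DC 1 summed to 6538 and 6230, with none past 2-fold. The 12 genes shared by conventional DC summed to 14639 and 14889, with none past 2-fold. Most of both sums came from H2-Aa (5000 in WT and 5231 in MARCO-/-), H2-Ab1 (3356 and 3710) and Cd74 (2249 and 2221). The sums therefore say little about the other genes of the list. The 5 measured genes of marginal zone macrophages did not move together: their median log2 ratio was -0.15, Marco, the targeted gene, was 2.04-fold lower, and Timd4, a receptor for phosphatidylserine, had 25.6 in WT and 14.1 in MARCO-/- (1.81-fold). Siglec1 lay below the array median on all 4 arrays. Their sums were 128 and 147, of which Mertk, also on the list of red pulp macrophages, made up 72.5 and 99.4. Red pulp macrophage genes summed to 2809 and 4168, with 2 of 15 higher and none lower. For B cells the sums were 2596 and 2229, with 0 of 11 past 2-fold. The 13 genes of stromal and muscle cells summed to 54.0 and 594, with 9 higher and none lower. Of 13 genes of monocytes and neutrophils, 3 were higher (Fcgr4, Fn1 and F13a1) and none lower at sums of 2816 and 3142, with Ccr2 just under the threshold at 127 and 63.5. Of 11 genes of NK and T cells, Ncr1 and Cd160 were higher and Gzma and Gzmb lower, at sums of 919 and 671. Of 6 erythroid genes, 3 were higher and none lower, at sums of 4417 and 6412. None of 8 measured genes of plasmacytoid DC was past 2-fold, at sums of 781 and 694. Among them Ccr9 had 157 in WT and 81.7 in MARCO-/-, with 2 of its 4 probe sets at least 2-fold lower. Of 19 measured DC maturation genes, Ccl22 alone was past 2-fold, at 91.1 in WT and 38.6 in MARCO-/-. Whether these cells had a part in the differences of the lectins was not tested.

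With LPS, 0 of the 9 members passed 2-fold between genotypes in either direction, where 2.09% of all genes were higher and 1.31% lower (1.05% lower among genes that reached 32). The median log2 ratio of the members was -0.37, against 0.00 over all genes. Cd209c, Cd209d, Cd209e, Mgl2 and Clec10a lay below the array median on both LPS arrays, so a genotype difference could not be measured for them there. Cd209a had 7.65 in WT LPS and 5.94 in MARCO-/- LPS (1.29-fold), and Clec7a had 709 and 615 (1.15-fold). Clec4a2 had 8.21 and 8.72 in its brightest probe set. Another of its probe sets had 3.47 and 8.04, of which the first lies below the array median, and the difference was 2.32-fold as measured and at least 1.61-fold with the median as floor.

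More members differed between LPS and PBS than between genotypes. The comparisons share arrays: each PBS array enters a genotype comparison and an LPS comparison. In WT DC, 6 of 9 members were at least 2-fold lower with LPS and none was higher: Cd209a, Cd209d, Cd209e, Mgl2, Clec10a and Clec4a2. Among all genes 8.31% were lower and 6.20% higher, and among the genes that reached 32, 16% were lower. In MARCO-/- DC, 5 of 9 were lower and none was higher, the same genes without Cd209e, against 5.98% lower and 6.32% higher of all genes and 11.1% lower of those that reached 32. The median log2 ratio of the members was -2.97 in WT and -1.18 in MARCO-/-, against 0.05 and 0.00 over all genes. These medians are the ratios of Clec10a in WT and of Mgl2 in MARCO-/-, each with an LPS value below the array median. With values below the array median raised to it, these ratios were -2.63 and -0.33. Whether the difference with LPS was smaller in MARCO-/- was not tested.

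Cd209a showed nearly the same difference in the 2 genotypes. It had 219 in WT PBS and 7.65 in WT LPS, 28.7-fold lower, and 189 in MARCO-/- PBS and 5.94 in MARCO-/- LPS, 31.9-fold lower. Its log2 ratios of -4.84 and -5.00 were the 21st and 22nd lowest of 17097 genes in WT and MARCO-/-. Clec10a went from 30.7 to 3.91 in WT and from 24.7 to 3.20 in MARCO-/-, at least 6.17-fold and at least 5.23-fold lower with the array median as floor. Clec4a2 went from 67.1 to 8.21 in WT (8.17-fold lower) and from 110.0 to 8.72 in MARCO-/- (12.6-fold lower). Its second probe set past 2-fold went from 50.1 to 3.47 and from 71.1 to 8.04, while the dimmest one, from 8.22 to 5.04 and from 10.4 to 6.63, missed it.

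Cd209d, Cd209e and Mgl2 started from unequal values with PBS and ended below the array median with LPS in both genotypes. Cd209d was at least 17.1-fold lower with LPS in WT and at least 3.93-fold lower in MARCO-/-. Cd209e was at least 12.1-fold lower in WT, and no fold can be given in MARCO-/-, where it was below the array median with PBS and with LPS. Mgl2 was at least 3.91-fold lower in WT and at least 1.26-fold lower in MARCO-/-, so that its 2.27-fold difference in MARCO-/- rests on values at background. On the log2 scale the LPS difference in MARCO-/- minus that in WT was 4.27 for Cd209e, 1.64 for Cd209d and 1.22 for Mgl2. It was between -0.63 and 0.69 for the other 6 members by their brightest probe sets. The value of -0.63 is that of Clec4a2, whose other probe set past 2-fold gave 0.71, the opposite sign, with its WT LPS value below the array median. These differences were not tested, and for Cd209e, Cd209d and Mgl2 they restate the unequal PBS values, because the LPS values had reached background.

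Clec7a, Cd209b and Cd209c did not pass 2-fold with LPS in either genotype. Clec7a had 813 and 709 in WT and 436 and 615 in MARCO-/-, so it was 1.15-fold lower with LPS in WT and 1.41-fold higher in MARCO-/-. It was the single member above 100 on all 4 arrays. Cd209c went from 8.51 to 4.95 in WT and from 6.73 to 3.42 in MARCO-/-, a measured 1.72-fold and 1.97-fold near background. Cd209b had 5.58 in WT LPS and 4.18 in MARCO-/- LPS, as close to background as with PBS.

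**Figure D3:**
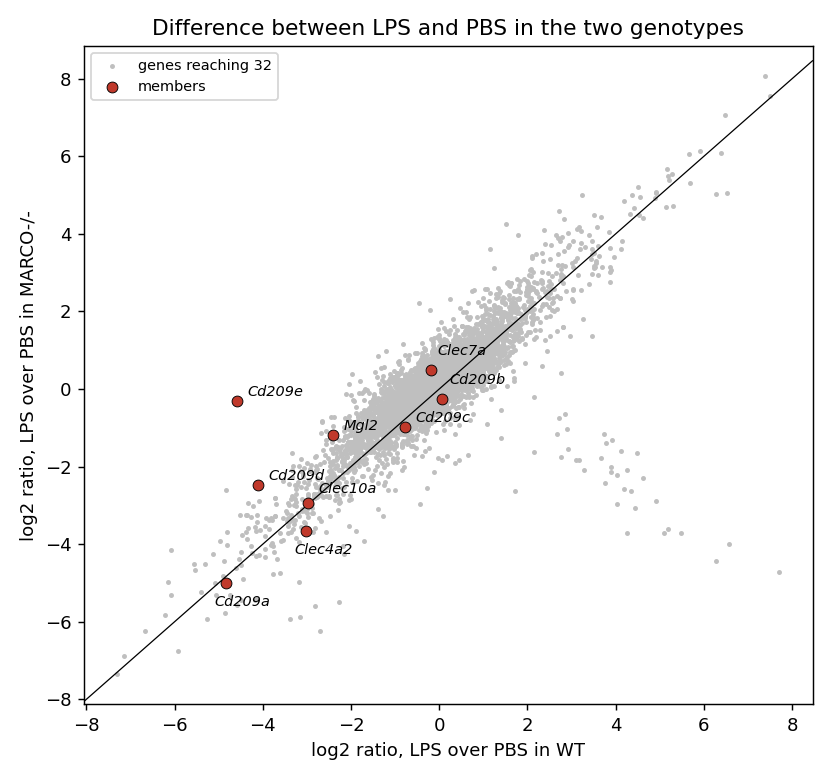
log2 ratio of LPS over PBS in WT (horizontal axis) and in MARCO-/- (vertical axis); grey points are the genes that reached an intensity of 32 on any array, red points the 9 members, and the line marks equal ratios. Cd209a lies close to the line at -4.84 and -5.00, while Cd209e lies far above it at -4.59 and -0.32.

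Many, but not all, genes of conventional DC and of other myeloid cells were lower with LPS as well. Of 19 measured DC maturation genes, 11 were at least 2-fold higher in WT and 13 in MARCO-/-, with none lower. Of 8 measured plasmacytoid DC genes, 1 was higher and 2 were lower in each genotype, with median log2 ratios of 0.05 in WT and 0.30 in MARCO-/-. The 12 genes shared by conventional DC summed to 7265 in WT LPS and 6788 in MARCO-/- LPS. H2-Aa alone made up 3013 and 2035 of these sums. At least 2-fold lower than with PBS were 8 of the 12 in WT and 9 in MARCO-/-. None was at least 2-fold higher in WT, and 2 were in MARCO-/-. These were Zbtb46, from 45.4 to 118 in 1 of its 4 probe sets, and Cd83, from 676 to 1617. Itgax, the gene of CD11c, went from 548 to 12.9 in WT and from 621 to 16.4 in MARCO-/-. Of 17 genes of conventional DC 2, 8 were lower and 1 higher in WT, and 7 lower and 2 higher in MARCO-/-, among them Klf4, a transcription factor, from 629 to 48.7 in WT and from 440 to 56.1 in MARCO-/-. Of 14 genes of conventional DC 1, the cross-presenting subset, 9 were lower in each genotype and none was higher. Of 15 red pulp macrophage genes, 14 were lower in WT and 13 in MARCO-/-, and their sums went to 609 and 946. Of 13 measured genes of monocytes and neutrophils, 7 were lower and 2 higher in WT, and 9 were lower and none higher in MARCO-/-. The 2 higher in WT were Fn1, from 6.38 to 94.2, and F13a1, from 4.26 to 38.4. Of 5 measured marginal zone macrophage genes, 3 were lower in WT and 2 in MARCO-/-, with none higher. Among 11 NK and T cell genes, 6 were lower and 1 higher in WT, and 5 lower and none higher in MARCO-/-. In each genotype 2 of 11 B cell genes and 2 of 6 erythroid genes were lower and none was higher. The 13 genes of stromal and muscle cells moved in opposite directions in the 2 genotypes: their sum went from 54.0 to 1873 in WT, with 11 higher and none lower, and from 594 to 59.0 in MARCO-/-, with 9 lower and none higher. The part of these cells in the lectin values with LPS was not tested.

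Other C-type lectins went in several directions. Of 41 further C-type lectin genes 34 had a probe set, and 13 of these lay below the array median on all 4 arrays, among them Cd209f, Cd209g and Clec4g of the chromosome 8 cluster. Between genotypes, by the brightest probe set of each gene, Fcer2a was the single one at least 2-fold lower in MARCO-/- with PBS. With LPS it was Mrc1, the mannose receptor (12.1 in WT and 2.72 in MARCO-/-, the latter below the array median). None was higher in either condition by that probe set. Clec4e and Clec2i each had 1 of 2 probe sets at least 2-fold higher in MARCO-/- with LPS. With LPS over PBS, 6 were higher and 7 lower in WT (median log2 ratio 0.18), and 5 were higher and 6 lower in MARCO-/- (median -0.13).

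The lectins that were higher with LPS include Clec4e, Clec4d and Clec4n, activating receptors that pair with the chain Fcer1g and that lie on chromosome 6 like Clec4a2. Clec4e, which encodes the glycolipid receptor Mincle, went from 5.89 to 357 in WT (60.6-fold higher) and from 7.12 to 499 in MARCO-/- (70.1-fold). Clec4d, which encodes its partner MCL, went from 16.1 to 183 in WT (11.4-fold) and from 12.2 to 271 in MARCO-/- (22.3-fold). Clec4n, which encodes Dectin-2, went from 79.8 to 169 in WT (2.11-fold) and from 158 to 275 in MARCO-/- (1.74-fold, with another probe set past 2-fold). Clec4b1, one of the 3 nearest genes on one side of Clec4a2, was lower with LPS, from 21.1 to 7.67 in WT (2.75-fold) and from 21.3 to 6.07 in MARCO-/- (3.51-fold). Ly75, the endocytic receptor DEC-205, went from 71.9 to 221 in WT and from 45.7 to 305 in MARCO-/-. Clec2d and, in MARCO-/- alone past 2-fold, Clec2i were higher too, and Mrc2 was past 2-fold in WT alone, at 3.41 and 11.4.

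Among the lectins that were lower with LPS, Mrc1 went from 127 to 12.1 in WT and from 167 to 2.72, below the array median, in MARCO-/-. Fcer2a went from 233 to 56.7 in WT (4.11-fold lower) and from 73.5 to 42.4 in MARCO-/- (1.73-fold). Cd302 went from 90.4 to 20.0 in WT and from 118 to 33.6 in MARCO-/-, and Cd69, an activation antigen of lymphocytes, from 449 to 160 and from 237 to 101. Clec1b and Cd207, which encodes langerin, were past 2-fold lower in both genotypes.

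**Figure D4:**
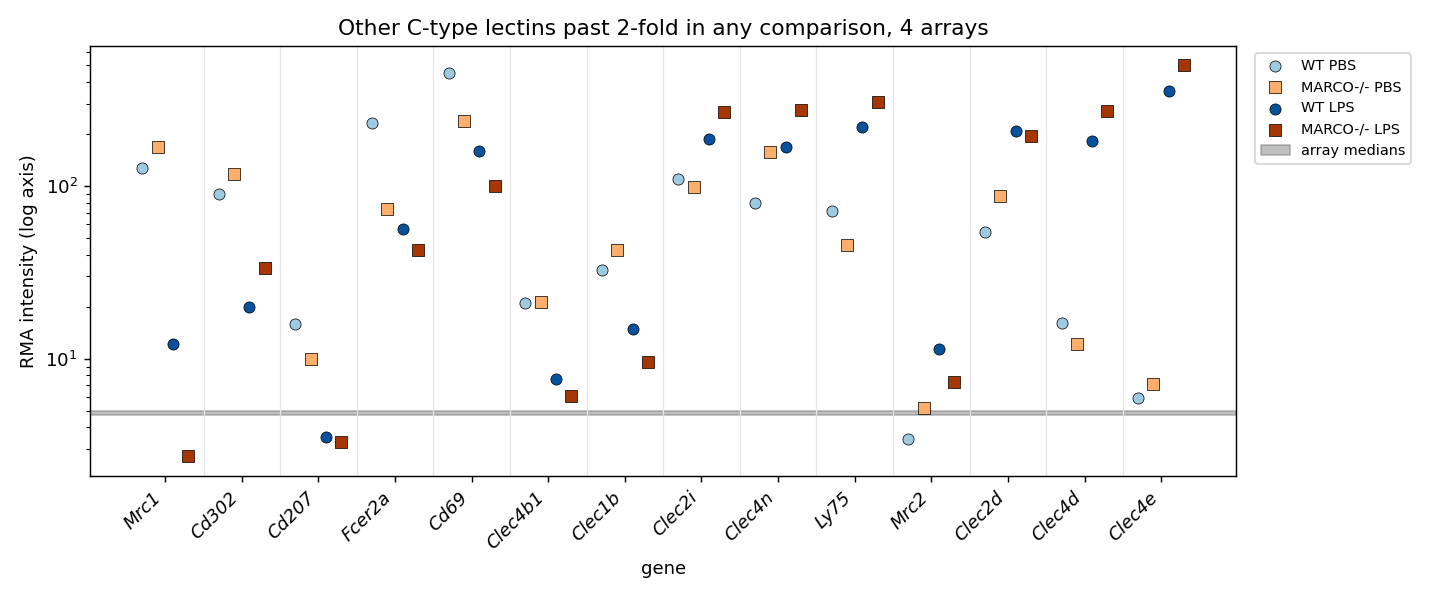
RMA intensity (log axis) of the 14 further C-type lectins past 2-fold in any of the 4 comparisons; symbols are as for the members, 1 point per array, and the genes are ordered by the log2 ratio of LPS over PBS in WT. Mrc1 at the left goes from 127 to 12.1 in WT and Clec4e at the right from 5.89 to 357.

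Genes that carry the signals of these receptors were compared as a list of 30, of which 25 had a probe set. Counts here are by the brightest probe set of each gene. With PBS none was past 2-fold between genotypes (median log2 ratio 0.00), although 1 of 5 probe sets of Ppp3cb was at least 2-fold lower in MARCO-/-. Syk, the kinase downstream of Clec7a, had 54.5 in WT and 78.3 in MARCO-/-. In the presence of LPS, Fcer1g (175 in WT and 372 in MARCO-/-) and the scaffold gene Ksr1 (8.84 and 18.3) were at least 2-fold higher in MARCO-/- and none was lower. Ksr1 passed in 1 of its 3 probe sets, and 1 of 2 probe sets of Vav1, the dimmer one, was also at least 2-fold higher. LPS over PBS gave 1 higher (Src) and 7 lower genes in WT and 2 higher (Src and Cblb) and 5 lower genes in MARCO-/-. Fcer1g, Tyrobp, the phosphatase gene Inpp5d, Nfatc1 and the ubiquitin ligase gene Cbl were lower in both genotypes, and Malt1 and Cyld passed 2-fold in WT alone. Tyrobp, a signalling chain like Fcer1g, went from 1270 to 401 in WT and from 1666 to 448 in MARCO-/-.

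The genes with the pattern most like that of a member were found by the distance between log2 values centred on their mean over the 4 arrays, among genes that reached 32. Nearest to Cd209a were Plbd1, Nr4a1 and Bex6, at distances of 0.26 to 0.30. Plbd1 had 2430 in WT PBS, 2279 in MARCO-/- PBS, 90.8 in WT LPS and 57.1 in MARCO-/- LPS. Nearest to Cd209d were Lifr (0.63), Gp2 (0.69) and Slc14a1 (0.86). All of them, like Cd209d and Cd209e, lay below the array median on both LPS arrays. On those arrays the likeness therefore compares values at background. Lifr, a cytokine receptor, had 118 in WT PBS, 27.0 in MARCO-/- PBS, 4.14 in WT LPS and 4.45 in MARCO-/- LPS. For Cd209e the distances were larger: the closest was Cd209d, at 1.78, followed by Lifr and Gp2. Nearest to Mgl2 were Fcer2a (0.38), Cd55 (0.49) and Ccr9 (0.65), the last from the list of plasmacytoid DC genes. Cd55, which shields cells from complement, had 126 in WT PBS, 40.9 in MARCO-/- PBS, 23.0 in WT LPS and 25.0 in MARCO-/- LPS. Likeness over 4 arrays describes these arrays and nothing more.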

How the data were processed

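The deposited table holds intensities of 4 arrays, which the authors had background-corrected, normalized and summarized per probe set with RMAexpress (version not given in the sources used here). Its values are linear, and log2 ratios were taken here with no offset. Of 45141 probe sets, 104 controls were left out. Where several probe sets carried 1 symbol and no other, the one of highest mean log2 intensity stood for the gene, giving 17097 genes. The platform annotation named no probe set for 1 of the 10 symbols. A difference was called at 2-fold. Detection calls were not used here, so the median of each array stood for background, and a fold against a value below it was computed with that median as floor. Each condition has 1 array, which limits the precision and allows no test. RMA subtracts a modelled background and normalizes the arrays to each other, so ratios of dim probe sets depend on those steps.

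The text names every member and the 3 nearest genes in pattern of 4 members. Of the list genes past 2-fold it names some, with a few others, and gives the rest as counts. The members and gene lists were chosen with earlier results of these data known. Promoter windows came from RefSeq (GRCm38.p6) and matched 9 of the 10 symbols, all but Clec10a. The counts were repeated under 9 other settings (array centring, quantile normalization, cyclic loess, an offset of 16, the mean of all probe sets, suffixed probe sets left out, thresholds of 1.5-fold and 3-fold, and a minimum of 32) and under 1 chosen after the data were seen, the array median as floor. The steps were tested on simulated data, where 100% of 200 differences of 2 on the log2 scale, planted among 45141 probe sets in the genotype comparison with PBS, were recovered. The simulated noise was small beside these differences, which lay well past the 2-fold threshold, so recovery was assured. This checks that the code runs correctly and says nothing of how reliable the measured differences are. Calculations used Python 3.11.15, numpy 2.4.6, pandas 2.3.3, Biopython 1.88, R 4.3.3 with limma 3.58.1, and matplotlib 3.10.9.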

Additional observations from a re-analysis of the deposited data

How the results depend on the processing

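Counts of members past 2-fold stayed within a factor of 1.5 of those given above, with the exceptions that follow. With PBS, MARCO-/- over WT gave 5 members at a threshold of 1.5-fold in place of 3, adding Clec7a (lower) and Clec4a2 (higher). LPS over PBS in MARCO-/- gave 3 in place of 5 with the offset of 16, where Cd209d (-0.84) and Mgl2 (-0.24) fell under 2-fold. It also gave 3 of the 7 members left without suffixed probe sets, which removes Cd209a and Cd209d, and 3 among the 5 members that reached 32. With the array median as floor it gave 4, without Mgl2. None of the settings made a called ratio change sign, and the comparison of MARCO-/- over WT with LPS gave 0 members under every setting. Array centring, quantile normalization and cyclic loess moved the 108 member ratios by at most 0.19 on the log2 scale. The offset moved 15 of 36 ratios by over 1.5-fold, as its construction shrinks differences of dim probe sets. No paired analysis was possible because each condition has 1 array. Values below the array medians limit Cd209b, Cd209c and all members with LPS but Cd209a, Clec4a2 and Clec7a.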
